A study of Mus musculus with 9 samples.

Results

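HC11 cells stably transfected with NFI-C2 were compared with the wild type cells of the same line, 3 arrays against 3 out of the 9 arrays of the series, to ask which genes and which functions across the genome differed between them. HC11 is a clone of COMMA-1D, a mammary epithelial line from BALB/c mice, and it carries a mutant p53. The first group is named for the transfected construct NFI-C2, for which the methods specify a stable form, NFI-C2S. The labels name the second group wild type, whereas the methods describe it as a vector control. All cells grew in the same serum-containing medium with insulin at 5 µg/ml and, per the labels, EGF at 10 ng/ml (the methods give EGF in another unit). The series design describes the cultures as grown and harvested independently, the methods describe the transfected cells as pools, and whether each array of a group came from its own transfection is not stated. The p-values given here measure the spread between these arrays, and whether that includes the spread between independently transfected lines is not known. The members are all genes that have a transcript cluster (the probes for 1 transcript) assigned to that 1 gene and whose 9 values are not all equal, with 1 cluster per gene. These were 18497 of 19935 genes.

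NFI-C2 is a product of Nfic, 1 of the genes of the nuclear factor I family of transcription factors, which bind as dimers to a palindromic DNA sequence built on the core TTGGC. In the mammary gland these factors are known for their sites in the promoters of milk protein genes. The line itself is known for keeping the ability to make milk protein when lactogenic hormones are added, and the cells measured here were growing in EGF and insulin.

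The deposited values are log2 expression values that are centred, cluster by cluster, on the median of the 9 arrays, so they hold differences between arrays but no levels. Differences are given on the log2 scale as the NFI-C2 mean minus the wild type mean, and were tested two-sided with limma, the 9 arrays being fitted together. Calls were made where the p, adjusted by Benjamini-Hochberg over the 18497 genes, was under 0.05. At this threshold 1588 genes (8.59%) were higher and 2264 (12.2%) were lower in NFI-C2 cells, 20.8% in all, and with a difference of at least 1.5-fold required as well there were 424 (2.29%) and 517 (2.80%). Counts for lists of genes below are to be read beside the shares of 8.59% higher and 12.2% lower. The median of the differences over all genes was 0.00, the median size of a called difference was 0.375 and the median standard error was 0.053. Of the 3852 called genes, 3848 had NFI-C2 and wild type arrays that did not overlap. Arrays did not overlap for 14.1% of all genes with NFI-C2 above and for 18.1% with NFI-C2 below. For 1 gene taken alone, the smallest p of an exact permutation test over 3 and 3 arrays is 0.1. In 61.8% of the clusters at least 2 arrays sit exactly at the median, and for 4876 of the genes tested 3 arrays of 1 group are equal within 1e-06, which lowers the spread of that group.

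The transcript of Nfic itself did not pass the test. On the NFI-C2 arrays its values were 0.19, 0.00 and 0.00, and on the wild type arrays 0.21, 0.11 and 0.00. The groups overlapped, and the difference was -0.04 (standard error 0.072, adjusted p = 0.77) for the cluster on chromosome 10 from 80858936 to 80889918 (build NCBIM37). Which of its probes lie in the transfected sequence is not known, so this value does not check the labels. Its relatives Nfia, Nfib and Nfix had 0.17, 0.15 and 0.08 and did not pass either (adjusted p = 0.21, 0.053 and 0.59). Foxf1, the forkhead factor overexpressed in the remaining line of the series, had -1.42, -0.91 and -1.46 with NFI-C2 and 0.01, 0.00 and -0.07 in wild type cells. Every NFI-C2 array was below every wild type array, and Foxf1 fell by 1.24 (standard error 0.14, adjusted p = 8.2e-04). Foxf2, its closest relative, rose by 0.50 (adjusted p = 0.0034).

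Because levels are not in the values, whether the markers of a cell type are present cannot be read, but their differences can. Of 19 mammary luminal markers, 10 were lower and 1 higher (2 without NFI-C2 replicate 1), with a median of -0.84, and the mean over the markers lay between -0.85 and -0.79 on the NFI-C2 arrays and between -0.02 and 0.02 on the wild type arrays. The luminal markers that fell include Kit, a receptor of luminal progenitors (-1.06), Elf5, a transcription factor of alveolar cells (-0.84), Gata3, a regulator of luminal fate (-1.01), and the mucin Muc1 (-0.90). Ly6d, a surface protein, was the exception and rose by 1.67. Of 20 basal and myoepithelial markers 5 were higher and 2 lower, with a median of 0.12. In the fit of only the 6 arrays the number higher was 8. The general epithelial markers Epcam and Cdh1 had -0.40 and 0.14 and did not pass (adjusted p = 0.20 and 0.44). Markers of cells that the line should not hold were counted as well, and most did not pass. Of 13 fibroblast markers 1 was higher and 1 lower (7.69% each), and the same held for 13 endothelial markers. Of 16 blood cell markers 1 was lower (6.25%), and of 13 adipocyte markers 2 were higher (15.4%). These shares rest on 1 or 2 genes each and are to be read beside the 8.59% higher and 12.2% lower of all genes. The fibroblast marker called higher lost its call without any 1 array, and the endothelial marker called higher without each array other than NFI-C2 replicate 2. The fibroblast marker called lower lost its call in 5 of 6 fits with 1 array left out. The blood cell marker lost its call in 4 of these 6 fits. The mean over the blood cell markers lay between -0.05 and -0.02 with NFI-C2 and was 0.00 in wild type cells, and Ptprc, which encodes the common leukocyte antigen CD45, had 0.08 (adjusted p = 0.23). In bulk RNA, fewer cells of a type and less RNA per cell cannot be told apart.

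Of the genes with the largest differences, 20 were higher and 22 lower by 4-fold or more. Below the first 10 in each direction, the rises include Slc6a4, the serotonin transporter (2.33), Serpinb1a, an inhibitor of neutrophil proteases (2.32), Pi15, a secreted protease inhibitor (2.31), Cd80, a costimulatory ligand of T cells (2.01), and Vegfd, a growth factor of lymphatic vessels (1.90). Slc6a4 had 2.48, 2.07 and 2.43 on the NFI-C2 arrays and 0.00, -0.04 and 0.02 on the wild type arrays. The falls include Hey1, a transcriptional repressor induced by Notch (-2.72), Igfbp5, an IGF-binding protein of the involuting gland (-2.68), Rorb, an orphan nuclear receptor (-2.66), Il6, the cytokine (-2.56), and Cnmd, chondromodulin, a glycoprotein of cartilage (-2.43). Hey1 had -0.06, 0.00 and 0.00 with NFI-C2 and 2.89, 2.66 and 2.56 in wild type cells. In each of these genes the groups did not overlap, and the adjusted p was 3.0e-04 or less. The plot of values by array shows the same separation for other genes described here, and the overlap for Nfic.

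**Figure D1:**
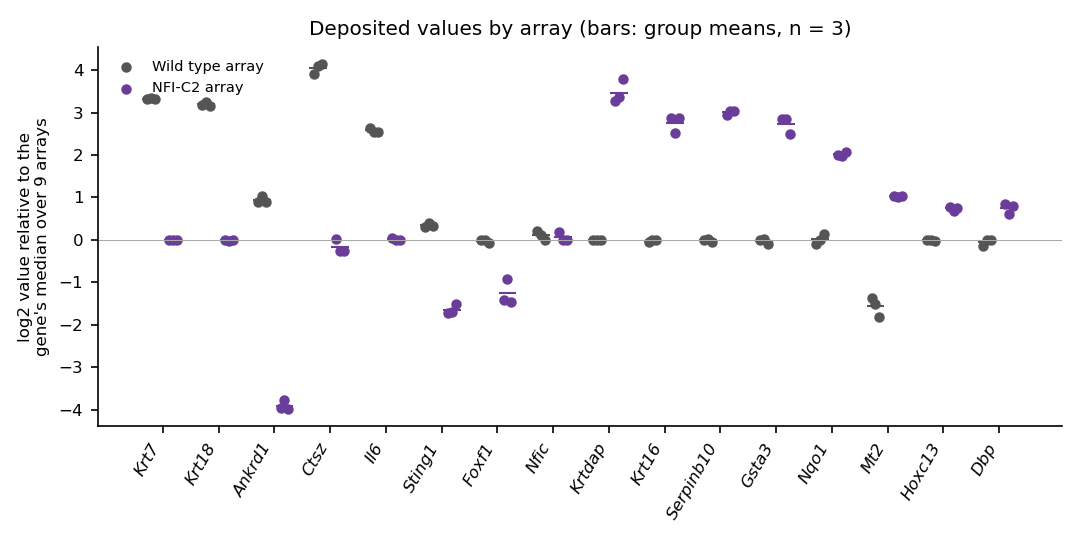
Deposited log2 values of 16 genes on each of the 3 wild type arrays (grey points) and 3 NFI-C2 arrays (purple points), relative to the gene's median over the 9 arrays; bars are group means. The groups overlap for Nfic (-0.04) and lie apart for the other genes drawn, from Ankrd1 (-4.85) to Krtdap (3.47).

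The shares of genes that changed by 1.5-fold or more differed between cell compartments, taken from the platform annotation. Of 220 genes annotated to the extracellular matrix, 9.55% were higher and 7.73% lower by 1.5-fold or more, against 2.29% and 2.80% of all genes. For 2023 genes of the extracellular region the shares were 4.20% and 5.78%, and for 3175 genes of the nucleus 1.86% and 2.24%. Among 219 genes of the cytosol 1.83% were higher and 6.39% lower, and among 479 of the Golgi apparatus 2.30% and 4.38%. Receptors of smell and taste, which epithelium of this kind is not known to use, gave low shares. Of 967 of them, 0 were higher and 3 lower with limma (Olfr1372-ps1 at -0.99, Olfr1286 at -0.15 and Olfr1436 at -0.12), that is 0.310% lower against 12.2% of all genes, and at an unadjusted p under 0.05 the counts were 12 and 5. The number lower was 5 without wild type replicate 1 and 1 without NFI-C2 replicate 3. With 1 array left out, the number higher ranged from 0 to 10. At the other end, the bar plot of gene groups shows several long bars. Those to the lower side are keratins of simple epithelium, mammary luminal markers, YAP pathway genes, tight junction proteins and interferon-stimulated genes. Those to the higher side include desmosome, circadian clock and glutathione genes. The lists of simple keratins and luminal markers overlap, and Krt7 has the largest fall in both (-3.33).

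**Figure D2:**
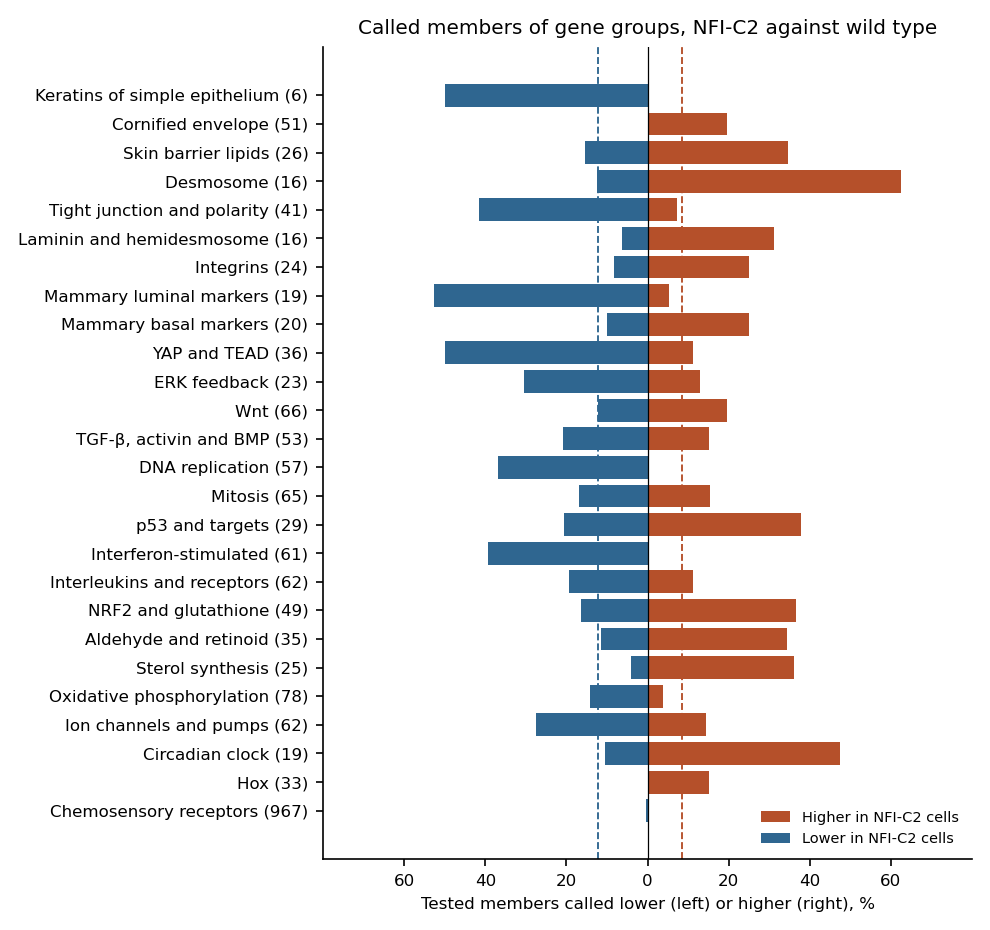
Share of the tested members of 26 gene groups called lower (bars to the left, blue) or higher (bars to the right, orange) in NFI-C2 cells, in %, with the number of tested members in parentheses. Dashed lines mark the shares over all genes, 12.2% lower and 8.59% higher. The desmosome bar reaches 62.5% to the right and the luminal marker bar 52.6% to the left.

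Called genes were not spread evenly along the chromosomes. In some stretches nearly all called neighbours went 1 way. The genome was divided into windows of 5 Mb, and of the 134 windows with 10 or more called genes, 34 had at least 90% of their calls in 1 direction, 10 higher and 24 lower. From these, 5 longer stretches were picked after the values were seen, with limits set by eye, and they carry no test. They also take in windows that were more mixed, most of all on chromosome 12, where 2 windows (55 to 60 and 70 to 75 Mb) met the mark of 90%. Adjacent windows that met it outside the 5 stretches lay on chromosome 2 from 150 to 160 Mb, with 31 of 89 and 20 of 66 genes lower, on chromosome 5 from 140 to 150 Mb and on chromosome 6 from 45 to 60 Mb. On chromosome 6 from 120 to 150 Mb, 94 of 288 genes (32.6%) were higher and 4 (1.39%) lower. On chromosome 8 from 95 to 115 Mb, 77 of 199 (38.7%) were higher and 4 (2.01%) lower, and a few megabases on, from 120 to 135 Mb, 1 of 129 (0.775%) was higher and 61 (47.3%) lower. In the proximal stretches of chromosome 4 (0 to 65 Mb) and chromosome 12 (0 to 75 Mb), 126 of 316 genes (39.9%) and 81 of 248 (32.7%) were lower, and 8 and 11 were higher.

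The differences in these stretches were mostly moderate. The median of the called genes was 0.54 on chromosome 6, 0.37 and -0.44 on chromosome 8, -0.45 on chromosome 4 and -0.35 on chromosome 12. Calls on the rest of the same chromosomes were more mixed, with 79 genes higher and 50 lower on the remaining 766 genes of chromosome 4, and 41 and 126 on the remaining 713 of chromosome 6. Over all genes of a stretch, called or not, the NFI-C2 median was 0.05 on chromosome 6 and 0.13 and -0.19 on chromosome 8. It was -0.14 on chromosome 4 and -0.09 on chromosome 12. In FoxF1 cells, compared with the same wild type arrays, these medians were 0.00, 0.13, 0.09, 0.00 and 0.02 in the same order. The mostly higher stretch of chromosome 8 thus had like medians in both lines. Outside the 5 stretches 1374 of 17045 genes (8.06%) were higher and 1937 (11.4%) lower. A cause common to neighbouring genes was not tested.

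Several genes named in this report lie in these stretches. On chromosome 6 they are Ccnd2, cyclin D2 (0.79), Cdkn1b, the CDK inhibitor p27 (0.61), the mitosis genes Cdca3 (0.79), Ncapd2 (0.75) and Foxm1 (0.53), and the cytokine receptors Ltbr (0.77) and Tnfrsf1a (0.67). Clec12a, a lectin of myeloid cells, lies among them and fell by 2.35. The stretch of chromosome 8 that was mostly higher holds Mt1, Mt2, Bbs2, Nqo1 and Cdh3, and its neighbour holds Foxf1, the mechanosensitive channel Piezo1 (-1.25) and Itgb1, the integrin β1 chain (-0.33). On chromosome 4 the falls include Npr2, the receptor of C-type natriuretic peptide (-1.89), Reck, a membrane inhibitor of matrix metalloproteases (-1.69), Pappa, which cleaves IGF-binding proteins (-1.37), and Tgfbr1, a TGF-β receptor (-0.85). Epha7, an ephrin receptor in the same stretch, rose by 1.90. On chromosome 12 they include Id2, an inhibitor of helix-loop-helix factors (-1.09), and Mycn, a transcription factor of the Myc family (-1.01).

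**Figure D3:**
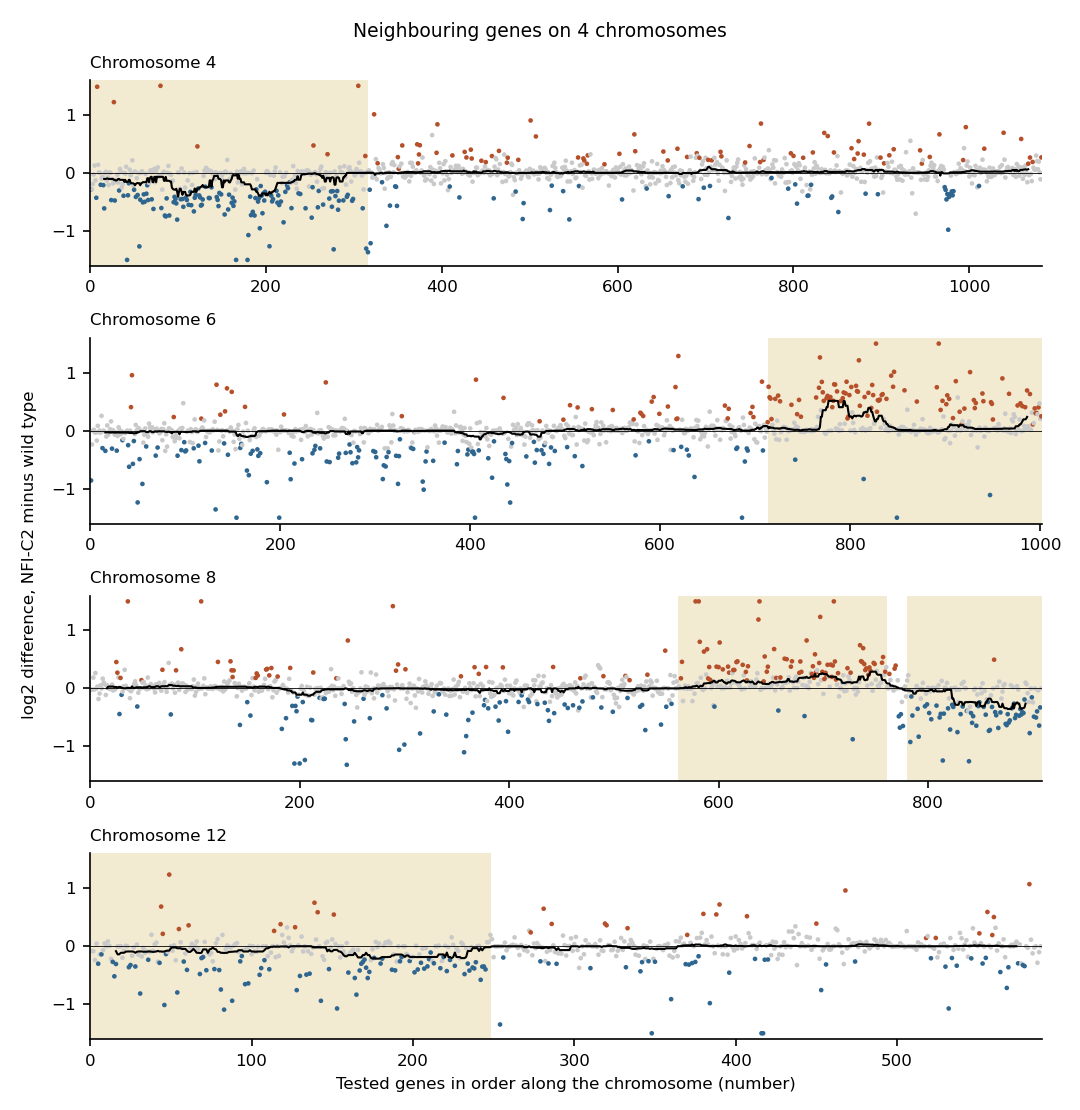
Log2 differences, NFI-C2 minus wild type, of all tested genes of 4 chromosomes in their order along each chromosome. Points are genes (orange called higher, blue called lower, grey not called), drawn at 1.5 or -1.5 where they exceed it; the black line is the running median of 31 genes and the shaded bands are the 5 stretches. The line lies mostly at or above 0 in the bands of chromosome 6 and the first band of chromosome 8 and mostly at or below 0 in the others.

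Some keratins of simple epithelium fell in NFI-C2 cells, and some genes of epidermal differentiation rose. Of 6 simple keratins 3 were lower. Krt18 had 0.00, -0.03 and 0.00 on the NFI-C2 arrays and 3.18, 3.26 and 3.15 on the wild type arrays. Krt8, its partner in the same filaments, had 0.00, -0.17 and 0.09 against 1.05, 1.14 and 1.13. The groups lie well apart for both, but the call of Krt8 (-1.13, adjusted p = 0.021) was lost in each of the 6 fits with 1 array left out, where its difference was -1.19 to -1.06. Krt19, the smallest keratin of this kind, had 0.05 (adjusted p = 0.21). Of 18 keratins of stratified epithelium 3 were higher and 2 lower. In the fit of only the 6 arrays these counts were 6 and 1, and 1 was lower without each array other than wild type replicate 2. Krt5 and Krt14, the pair of basal cells, had 0.22 and 0.43 and did not pass (adjusted p = 0.86 and 0.11).

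Of 51 genes of the cornified envelope and epidermal differentiation 10 were higher (19.6%, against 8.59% of all genes), 0 were lower and most did not pass, with a median of 0.03. At an unadjusted p under 0.05 these counts were 15 and 2. Sprr1a, a small proline-rich precursor of the envelope, had 1.43, 1.31 and 1.31 with NFI-C2 and -0.07, 0.00 and 0.07 in wild type cells, a rise of 1.35 (standard error 0.057, adjusted p = 8.4e-06). Sprr2h, of the same family, rose by 1.90 and Tgm5, a transglutaminase that crosslinks envelope proteins, by 1.25. Among 16 epidermal kallikreins and their inhibitors 1 was higher and 3 lower, and the 1 was Spink5, an inhibitor of kallikreins, which rose by 1.59. The number lower was 2 without wild type replicate 3, 1 without each other array, and 5 in the fit of only the 6 arrays. Of 26 genes of skin barrier lipid synthesis 9 were higher and 4 lower. The number higher was 5 without wild type replicate 3. Lipm, a lipase of the epidermis, rose by 1.55 and Cers3, a ceramide synthase for very long acyl chains, by 0.96. Ugcg, which makes glucosylceramide, fell by 1.32 and lies in the stretch of chromosome 4.

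Counts of cell junction genes are given by type. Desmosomes tie keratin filaments of neighbouring cells together, and 10 of 16 desmosome genes were higher (62.5%) and 2 lower (1 without NFI-C2 replicate 1 or 3 or wild type replicate 1 or 2), with a median of 0.37. Dsp, desmoplakin, the link to the filaments, had 1.00, 0.89 and 0.77 with NFI-C2 and 0.00, -0.04 and 0.13 in wild type cells. All NFI-C2 arrays were higher, and the rise was 0.86 (standard error 0.097, adjusted p = 7.8e-04). Dsc2, a desmosomal cadherin, rose by 0.67, Evpl, the envelope plakin envoplakin, by 0.54, and Pkp1, a plakophilin of stratified epithelium, by 0.48. Without 1 array the number of desmosome genes higher was 8 or 9.

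Of tight junctions, which seal the apical side of simple epithelium, 17 of 41 genes were lower (41.5%, against 12.2% of all genes) and 3 higher. Cldn3, a claudin of luminal cells, had 0.00 on all 3 NFI-C2 arrays and 0.74, 1.13 and 0.90 in wild type cells, a fall of 0.92 (standard error 0.14, adjusted p = 0.0027). Marveld3, a membrane protein of these junctions, fell by 0.88 although it lies in the mostly higher stretch of chromosome 8. Of 27 classical cadherins, catenins and nectins 4 were higher and 7 lower. Cdh2, N-cadherin, had -1.49, -1.47 and -1.55 with NFI-C2 and 0.01, -0.03 and 0.00 in wild type cells. It fell by 1.49 with no overlap, and Ctnnd2, a catenin of the p120 family, rose by 1.46.

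Of 16 laminin, nidogen and hemidesmosome genes, which anchor epithelium to its basement membrane, 5 were higher and 1 lower. Col17a1, the hemidesmosome collagen, had 1.10, 0.88 and 0.99 with NFI-C2 and 0.00, -0.07 and 0.01 in wild type cells, and rose by 1.01 (standard error 0.11, adjusted p = 5.0e-04). Lama3, a laminin chain of the epidermal basement membrane, rose by 0.83. Of 24 integrin subunits 6 were higher and 2 lower. Itgb6, a subunit of epithelium that activates TGF-β, rose by 0.62 and Itga2, a collagen receptor subunit, by 0.57, whereas Itgb3, the β3 subunit of receptors for vitronectin, fell by 1.70. The 26 focal adhesion genes had 2 higher and 7 lower, and Ptk2b, a kinase related to FAK, fell by 1.36.

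Matrix genes changed in both directions. Of 41 collagen chains 4 were higher (9.76%) and 6 lower (14.6%), near the 8.59% and 12.2% of all genes. Of 44 matricellular and adhesive glycoproteins 7 were higher (15.9%) and 8 lower (18.2%), and of 35 proteoglycan and hyaluronan genes 7 and 6. The number of proteoglycan genes higher was 4 without NFI-C2 replicate 1 and without wild type replicate 3. Fbln1, fibulin 1, had 1.65, 1.25 and 1.49 with NFI-C2 and 0.00 on all 3 wild type arrays and rose by 1.47. Col8a1, a short-chain collagen, rose by 1.16. The cartilage genes Col2a1, the chain of collagen II, and Acan, aggrecan, fell by 1.74 and 1.35, as did Cnmd above.

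Of 49 matrix metalloproteases, ADAMs and their inhibitors 6 were higher and 11 lower, with rises of Mmp13, collagenase 3 (0.89), and falls of Adamts1, a proteoglycan-cleaving protease (-1.71). In the plasminogen system Plau, the urokinase, rose by 0.63 and its receptor Plaur fell by 0.63. Clade B serpins are intracellular protease inhibitors, and 5 of 21 were higher and 1 lower. Serpinb10 had 2.95, 3.03 and 3.04 with NFI-C2 and 0.00, 0.03 and -0.05 in wild type cells, and its neighbours on chromosome 1, Serpinb8 and Serpinb2, rose by 1.66 and 1.64. Cathepsins moved apart within 1 family. Ctsz, a carboxypeptidase of lysosomes, had 0.01, -0.27 and -0.26 with NFI-C2 and 3.90, 4.09 and 4.14 in wild type cells. It fell 18.6-fold, while Ctsc, which activates serine proteases, rose by 1.21.

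The pathway of YAP, a coactivator of TEAD factors that responds to cell shape and contact, was described with its regulators and its targets together. Of these 36 genes 18 were lower and 4 higher (2 without wild type replicate 1), with a median of -0.18, and leaving out 1 array gave 15 to 17 lower. The promoter of Ankrd1, a nuclear ankyrin repeat protein and the gene with the largest fall of all those compared, is shown because it holds both the TEAD motif and the NFI core. It is the RefSeq window of 250 bases before to 50 after the gene's start, on the minus strand of chr19:36119795-36120094 of GRCm38.p6, and the capitals mark TTGGC and CATTCC, the MCAT element, on either strand.
Ankrd1: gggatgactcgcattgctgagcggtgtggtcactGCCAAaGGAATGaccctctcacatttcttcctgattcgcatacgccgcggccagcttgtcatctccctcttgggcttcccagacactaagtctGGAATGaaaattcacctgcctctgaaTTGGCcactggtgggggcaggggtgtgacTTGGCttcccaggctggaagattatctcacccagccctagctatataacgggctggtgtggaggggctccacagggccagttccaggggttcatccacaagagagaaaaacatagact

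The Ankrd1 window holds 3 copies of TTGGC and 2 of CATTCC, and the 2 motifs do not overlap. Over 14496 tested genes with a RefSeq promoter, 15% held CATTCC, and so did 54.8% of the 31 YAP pathway genes with one. TTGGC was in 53.1% of all promoters and in 35.5% of those of the same 31 YAP pathway genes. It was in 57.2% of those of 318 genes higher by 1.5-fold and in 52.2% of those of 389 genes lower by 1.5-fold. The full palindrome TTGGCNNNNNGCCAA was in 5 promoters (0.0345%), and in 0 of both those sets. A match is a description of the letters and no site of binding. The values of Ankrd1 were -3.95, -3.78 and -3.98 on the NFI-C2 arrays and 0.89, 1.04 and 0.88 on the wild type arrays, a difference of 28.8-fold (-4.85, standard error 0.069, adjusted p = 6.5e-08). F3, tissue factor, had -0.52, -0.48 and -0.23 against 1.59, 1.56 and 1.38, and fell by 1.92. Ccn1, a matricellular protein, fell by 1.74, and Lats2, a kinase that inhibits YAP and is itself a target, by 0.71. Ccn2, a target often used to read the pathway, had 0.20 and did not pass (adjusted p = 0.17).

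Several secreted regulators of growth factor pathways changed. Of 66 Wnt genes 13 were higher and 8 lower, and the rises include 2 secreted inhibitors, Wif1 (2.15) and Notum, which removes the lipid of Wnt proteins (1.59), together with the ligand Wnt10a (0.86). Wif1 had 2.30, 1.90 and 2.23 with NFI-C2 and 0.00, -0.03 and 0.00 in wild type cells. Rspo3, a secreted enhancer of Wnt signaling, fell by 1.59. Of 53 TGF-β, activin and BMP genes 8 were higher (15.1%) and 11 lower (20.8%). Fst, follistatin, which binds activin, had 0.00, 0.00 and -0.02 against 1.84, 1.72 and 1.64 and fell by 1.74. Of 23 feedback inhibitors of ERK signaling 7 were lower and 3 higher, with falls of Dusp4 (-1.23) and Dusp6 (-0.94), phosphatases of ERK, and of Spry2 (-0.66), a Sprouty protein. Egfr, the EGF receptor, rose by 0.51.

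Of 25 fibroblast growth factors and receptors 2 were higher (1 without any 1 wild type array) and 2 lower. As shares, both counts were below the 8.59% higher and 12.2% lower of all genes. Fgf7, keratinocyte growth factor, had -0.57, -0.37 and -0.58 with NFI-C2 and 2.61, 2.36 and 2.23 in wild type cells, and its receptor gene Fgfr2 rose by 0.71. Kitl, the ligand of Kit, rose by 1.41, while Kit fell as given above. Of 23 genes of the IGF axis 1 was higher and 4 lower, and Igfbp2 fell by 0.95 beside its chromosomal neighbour Igfbp5. Igfbp5 had 0.03, -0.02 and 0.00 with NFI-C2 and 2.74, 2.59 and 2.72 in wild type cells. Of 18 hedgehog genes 5 were higher and 1 lower (3 higher without NFI-C2 replicate 1, and likewise without wild type replicate 1 or 2), and Gas1, a membrane coreceptor, rose by 1.43. Of 68 guidance genes 11 were higher and 12 lower, with rises of Efnb2, ephrin B2 (1.67), and Epha4, an ephrin receptor (1.51).

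Part of the genes of DNA replication fell. Of 57 replication genes 21 were lower (36.8%) and 0 higher with limma, with a median of -0.13, and at an unadjusted p under 0.05 the counts were 24 and 0. This count rested on the number of arrays, since it was 15 without NFI-C2 replicate 2 and 9 to 13 without each of the others, and 11 with unmoderated variances. E2f1, the factor that drives S phase genes, had -0.62, -0.58 and -0.83 with NFI-C2 and 0.00, 0.02 and -0.01 in wild type cells and fell by 0.68 (standard error 0.070, adjusted p = 4.8e-04). Ccne1, cyclin E1, fell by 0.66. Of 65 mitosis genes 10 were higher (15.4%) and 11 lower (16.9%). The number lower was 5 to 7 without NFI-C2 replicate 1 or 3 or wild type replicate 2 or 3. The largest rises among them (Cdca3, Ncapd2 and Foxm1) lie in the stretch of chromosome 6.

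Of 29 genes of the p53 pathway 11 were higher and 6 lower, in a line whose p53 is mutant. Sesn1, a stress-induced regulator of mTOR, had 0.81, 0.51 and 0.72 with NFI-C2 and -0.50, -0.51 and -0.43 in wild type cells, a rise of 1.16 (standard error 0.074, adjusted p = 5.2e-05). Trp53inp1, which has a part in autophagy and cell death and lies in the mostly lower stretch of chromosome 4, rose by 1.22. Fas, the death receptor, rose by 0.96 and Eda2r, the receptor of ectodysplasin A2, by 0.91. A cluster shared by Cdkn1a, a CDK inhibitor gene, and another gene was not among the genes tested and rose by 1.28. Mdm2, the ligase that degrades p53, fell by 0.28, a call lost in the fit of only the 6 arrays.

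Many interferon-stimulated genes and nucleic acid sensors fell, and all of those lie outside the 5 stretches above. Of 61 such genes 24 were lower (39.3%), 15 of them by 1.5-fold or more, and leaving out 1 array gave 19 to 23 lower. With limma 0 were higher, and at an unadjusted p under 0.05 there were 3 higher and 26 lower. Promoters of Ifit1, which binds foreign RNA, and Ddx60, a helicase that aids the sensing of viral RNA, are shown because both hold 2 copies of the core of the interferon response element, TTTCNNTTTC, in capitals on either strand. Both are RefSeq windows of 300 bases of GRCm38.p6 on the plus strand, at chr19:34640639-34640938 and chr8:61927837-61928136.
Ifit1: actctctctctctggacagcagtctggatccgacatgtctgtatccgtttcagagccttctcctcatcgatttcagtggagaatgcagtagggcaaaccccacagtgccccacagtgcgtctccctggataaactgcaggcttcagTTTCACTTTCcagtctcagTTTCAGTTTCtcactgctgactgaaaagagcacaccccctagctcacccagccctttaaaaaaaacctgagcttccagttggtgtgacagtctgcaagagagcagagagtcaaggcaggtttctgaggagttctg
Ddx60: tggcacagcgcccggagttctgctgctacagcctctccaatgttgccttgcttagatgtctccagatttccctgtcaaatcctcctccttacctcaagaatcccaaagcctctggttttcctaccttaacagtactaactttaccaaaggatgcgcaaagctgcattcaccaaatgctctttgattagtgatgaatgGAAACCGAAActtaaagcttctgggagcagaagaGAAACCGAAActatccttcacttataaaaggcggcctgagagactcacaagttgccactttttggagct

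The element was in 45.7% of the 46 genes of this list with a promoter and in 3.81% of all promoters. Ifit1 had 0.01, -0.24 and 0.00 on the NFI-C2 arrays and 0.65, 0.71 and 0.69 on the wild type arrays, and Ddx60 had 0.00, -0.05 and 0.00 against 1.01, 1.18 and 0.92. Both fell without overlap, by 0.76 and 1.06. Sting1, the adaptor of cytosolic DNA sensing, had -1.72, -1.69 and -1.52 against 0.30, 0.40 and 0.33 and fell by 1.99 (standard error 0.084, adjusted p = 8.3e-06). Trim30a, a regulator of inflammatory signaling, fell by 1.76, Rtp4, which is induced by interferon, by 1.32, and Gbp7, a guanylate-binding protein, by 1.14. The list is not uniform. Irf7 and Mx1, 2 widely used readouts of interferon, had 0.05 and 0.01 and did not pass (adjusted p = 0.89 and 0.84).

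Of 28 MHC and antigen processing genes 5 were lower, with B2m, the light chain of class I, at -0.34. Of 49 chemokine genes 9 were lower (18.4%) and 4 higher (8.16%), against 12.2% and 8.59% of all genes, with falls of Ccl9 (-1.91), Cxcl2, a neutrophil attractant (-1.54), and Ccl5 (-1.25). Of 62 interleukin genes 12 were lower (19.4%) and 7 higher (11.3%). Il6 had 0.05, 0.00 and 0.00 with NFI-C2 and 2.65, 2.55 and 2.54 in wild type cells, and Il1rn, the antagonist of the IL-1 receptor, fell by 1.38. Of 50 genes of the TNF superfamily and NF-κB 8 were higher and 10 lower (5 higher without wild type replicate 2), and Tnfrsf21, death receptor 6, rose by 1.76.

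Secreted defence proteins of epithelium split by gene, with 5 of 29 higher and 6 lower (3 higher without wild type replicate 1). Saa2, the acute phase protein serum amyloid A2, had 2.13, 1.75 and 2.25 with NFI-C2 and 0.06, 0.00 and -0.28 in wild type cells, and its neighbour Saa1 rose by 1.18, a call lost without wild type replicate 1, where the difference was 1.18, and in the fit of only the 6 arrays. Pglyrp3, a peptidoglycan recognition protein of skin, rose by 1.66 and Pglyrp1, its relative in neutrophils, fell by 1.40. Defb3, a β-defensin, rose by 1.59. Ltf, lactoferrin, an iron-binding protein of milk, had 0.01, -0.15 and 0.00 with NFI-C2 and 3.11, 3.19 and 3.30 in wild type cells. Of 27 milk protein and lactogenic genes in all, 4 were higher (2 without any 1 array other than NFI-C2 replicate 2) and 6 lower, and Csn2, β-casein, had -0.03 (adjusted p = 0.54). The labels list no prolactin in the medium.

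Genes of xenobiotic and glutathione metabolism were higher more often than lower, with 18 of 49 higher (36.7%, against 8.59% of all genes) and 8 lower. Gsta3, a glutathione transferase, had 2.84, 2.85 and 2.49 with NFI-C2 and 0.00, 0.02 and -0.09 in wild type cells. Nqo1, a quinone reductase, had 1.99, 1.98 and 2.07 against -0.09, 0.00 and 0.13. Both are known targets of the oxidative stress factor NRF2, as are Gclm, which makes glutathione, and Txnrd1, thioredoxin reductase, which fell by 0.64 and 0.80. The number lower was 4 without wild type replicate 1 or 2. Hmox1, heme oxygenase, had -0.22 (adjusted p = 0.12), so that the list did not move as 1 set. Of 35 aldehyde dehydrogenase and retinoid genes 12 were higher and 4 lower, with Aldh3a1 at 1.14 and Crabp2, a carrier of retinoic acid, at 0.83.

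Metallothioneins bind zinc and copper and are induced through metal response elements. The promoters of Mt1 and Mt2, which lie side by side in the mostly higher stretch of chromosome 8, are shown with the cores TGCACNC and TGCGCNC in capitals on either strand. They are RefSeq windows of GRCm38.p6 on the plus strand, at chr8:94178839-94179138 and chr8:94172368-94172667.
Mt1: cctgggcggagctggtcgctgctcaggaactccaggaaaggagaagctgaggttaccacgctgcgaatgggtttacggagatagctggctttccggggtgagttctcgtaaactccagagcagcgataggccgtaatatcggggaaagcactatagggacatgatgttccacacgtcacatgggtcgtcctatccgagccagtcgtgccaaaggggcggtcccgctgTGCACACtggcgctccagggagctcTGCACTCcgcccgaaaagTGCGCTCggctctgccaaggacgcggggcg
Mt2: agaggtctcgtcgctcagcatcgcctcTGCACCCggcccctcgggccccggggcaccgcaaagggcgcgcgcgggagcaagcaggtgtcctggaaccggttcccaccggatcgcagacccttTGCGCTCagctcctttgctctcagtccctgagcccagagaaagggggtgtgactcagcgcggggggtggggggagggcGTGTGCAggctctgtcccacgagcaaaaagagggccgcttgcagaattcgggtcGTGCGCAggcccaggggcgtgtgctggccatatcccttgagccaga

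The Mt1 window holds 3 such cores and the Mt2 window 4, and 35% of all promoters hold at least 1, as do 53.7% of the 41 metal-handling genes with a promoter. Mt2 had 1.03, 1.01 and 1.04 on the NFI-C2 arrays and -1.37, -1.51 and -1.82 on the wild type arrays, a rise of 2.59 (standard error 0.11, adjusted p = 7.8e-06). Mt1 had 0.24, 0.12 and 0.17 against -0.50, -0.62 and -0.76, a rise of 0.80 (standard error 0.075, adjusted p = 3.2e-04). Neither overlapped. Of 50 metal-handling genes 9 were higher and 5 lower (9 lower with genes of 3 equal arrays left out). Slc30a1, a zinc exporter, rose by 0.44 and Steap4, a metalloreductase, by 1.13, and the zinc importer Slc39a4 fell by 1.12.

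Of 25 genes of sterol synthesis and uptake 9 were higher and 1 lower (0 lower without each array other than NFI-C2 replicate 1), with a median of 0.14. Of the 9, 2 were measured by clusters on another chromosome than their gene, and the cluster of Fdft1 lies far from that gene on the same chromosome. Cyp51, a lanosterol demethylase, had 0.00 on all 3 NFI-C2 arrays and -0.55, -0.48 and -0.41 on the wild type arrays and rose by 0.48 (standard error 0.049, adjusted p = 4.8e-04). Msmo1, a sterol oxidase of the same pathway, rose by 0.33. Fatty acid genes did not lean the same way, with 8 of 42 higher and 10 lower (6 lower without wild type replicate 1 or 2). They include a rise of Acsbg1, an acyl-CoA synthetase (2.06), and falls of Acsl4, another such enzyme (-1.07), and of Fasn, fatty acid synthase (-0.41). Of 40 glycolysis and hypoxia genes 11 were higher and 5 lower, with rises of Car12, a carbonic anhydrase (1.41), and Aldoc, an aldolase (0.94), and a fall of Epas1, the factor HIF-2α (-1.24). Of 78 oxidative phosphorylation subunits 3 were higher (6 without NFI-C2 replicate 2) and 11 lower.

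Of 62 epithelial channels, pumps and aquaporins 17 were lower and 9 higher. Trpv6, a calcium channel, had 0.00, -0.02 and 0.00 with NFI-C2 and 2.94, 2.83 and 3.01 in wild type cells. Slc4a4, a bicarbonate cotransporter, fell by 1.71 and Cftr, the chloride channel of cystic fibrosis, by 1.24, whereas 2 subunits of the epithelial sodium channel, Scnn1a and Scnn1g, rose by 0.68 and 0.67. Of 55 amino acid, monocarboxylate and glucose transporters 10 were higher (18.2%) and 5 lower (9.09%, 3 lower without wild type replicate 2). Slc1a3, a glutamate transporter, had 1.36.

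Of 49 genes of the contractile cytoskeleton 10 were lower (20.4%) and 3 higher (6.12%). Cald1, caldesmon, which controls actomyosin, had -1.30, -1.31 and -1.44 with NFI-C2 and 0.00, 0.00 and 0.02 in wild type cells and fell by 1.36. Of 38 tubulins and microtubule regulators 7 were higher and 8 lower (5 lower without wild type replicate 2). Dpysl3, a regulator of growth cones, had 2.52, 2.50 and 2.50 with NFI-C2 and -0.09, 0.05 and 0.00 in wild type cells, and Tubb2b, a β-tubulin of neurons, fell by 1.42. Among 55 genes of the primary cilium 6 were higher and 6 lower (10.9% each, 3 lower without wild type replicate 2). These shares were near the 8.59% and 12.2% over all genes. Bbs2, a subunit of the BBSome, had 2.17, 2.12 and 2.04 against -0.38, -0.26 and -0.31, a rise of 2.43, and it is a neighbour of Mt1 and Mt2 on chromosome 8.

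Transcription factors are given by family. Of 33 Hox genes 5 were higher (15.2%), all of them of the Hoxc cluster on chromosome 15. Hoxc13, a regulator of hair keratins, had 0.78, 0.69 and 0.76 with NFI-C2 and 0.00, 0.00 and -0.03 in wild type cells, a rise of 0.75 (standard error 0.026, adjusted p = 3.6e-06). Hoxc6, Hoxc4, Hoxc8 and Hoxc9 rose by 0.51, 0.44, 0.43 and 0.40, the call of Hoxc8 being lost without NFI-C2 replicate 1 and without wild type replicate 2 (0.40 to 0.41). Hoxc10, between them, had 0.01 (adjusted p = 0.82). Of 18 factors of epithelial-mesenchymal transition 3 were higher (1 without NFI-C2 replicate 1 or 3 or wild type replicate 1 or 3) and 2 lower (4 with genes of 3 equal arrays left out). Snai1 and Snai2, related zinc finger repressors, went apart. Snai1 had -1.44, -1.60 and -1.69 with NFI-C2 and 0.19, 0.00 and -0.11 in wild type cells and fell by 1.60, while Snai2 rose by 0.80. Of 30 epithelial factors 10 were higher and 8 lower, with rises of Prdm1, a transcriptional repressor (1.00), and Pitx1, a homeodomain factor (0.75), and falls of Zfp750, a factor of epidermal differentiation (-0.94), and of Gata3.

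Of 19 genes of the circadian clock 9 were higher (47.4%) and 2 lower (Arntl and Cry1), with a median of 0.21, and leaving out 1 array gave 6 to 8 higher. Genes activated by CLOCK and BMAL1 through E-boxes were among the rises. Dbp, an output factor, had 0.84, 0.60 and 0.79 with NFI-C2 and -0.15, 0.00 and 0.00 in wild type cells, a rise of 0.79 (standard error 0.13, adjusted p = 0.0037). Per3, a period gene, rose by 0.79 and Nr1d1, which encodes the repressor REV-ERBα, by 0.61. Arntl, which encodes BMAL1, had -0.57, -0.49 and -0.49 against 0.00, 0.10 and 0.10 and fell by 0.58, and Cry1, a repressor of the 2 activators and itself one of their targets, fell by 0.35. The E-box CACGTG was in 31.2% of the 16 clock promoters and in 9.82% of all promoters. The time of harvest is not given in the labels, and its part in these values was not tested.

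**Figure D4:**
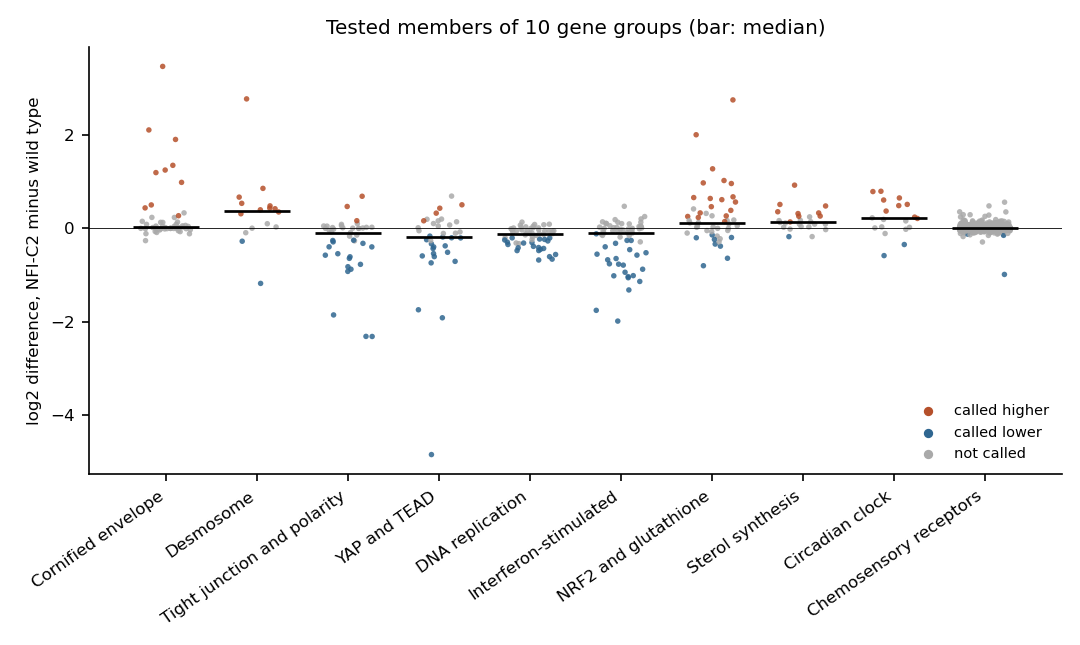
Log2 differences, NFI-C2 minus wild type, of every tested member of 10 gene groups. Points are genes (orange called higher, blue called lower, grey not called) and the bar is the median of the group. Medians lie at 0.37 for desmosome, 0.21 for the clock, 0.14 for sterol synthesis, -0.18 for YAP pathway genes and -0.13 for replication. The chemosensory receptors have a median of 0.00, and most of their points stay near 0.

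The study's own lists were chosen on these arrays and are not independent evidence of their direction. It selected 17 genes that, at 1.5-fold, fell with NFI-C2 and rose with FoxF1 here. A fall with NFI-C2 in earlier arrays of a breast cancer cell line was required as well. All 17 were lower here, 16 of them by 1.5-fold or more, and 2 lie in the stretches (Glipr2 and Nrp1). The remaining gene, Tgfb2, fell by 0.54. The study's 13 genes of epithelial-mesenchymal transition were listed for changes of 1.5-fold with NFI-C2, FoxF1 or both. Here 5 were higher and 4 lower. The rises include Dsp (0.86) and Twist1, a helix-loop-helix factor of mesenchyme (0.33), both listed for FoxF1 alone. The call of Twist1 was lost without each array other than wild type replicate 2, with differences of 0.25 to 0.36.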

How the data were processed

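A core facility hybridized HC11 RNA to Mouse Gene ST arrays (Affymetrix). RNA was extracted with Trizol per the labels and with the GenElute kit per the methods. The authors deposited log2 values per transcript cluster from RMA, named in the submitters' processing notes; its version is not given in the sources used here. Each cluster of the deposited table was found to have a median of 0 over the 9 arrays. A table of p-values from the authors' analysis of variance was not used.

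Of 28815 clusters, 21780 carry 1 gene symbol in the platform annotation, 1605 carry several and 5430 are not listed there. Where a gene had more than 1 cluster (998 genes), the one with most probes stood for it. The 1438 genes with 9 equal values were left out, and for 272 genes tested the cluster and the RefSeq gene of that symbol are on different chromosomes. Differences were tested with limma 3.58.1 in R 4.3.3 (3 group means, 6 residual and 1.29 prior degrees of freedom, no trend), after the script had been tested on simulated data. Tables were handled with Python 3.11.15 and pandas 2.3.3, and figures drawn with matplotlib 3.10.9. The number of arrays limits the precision.

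Lists of genes (83, of which 2 are the study's) were described by counts and medians, without a set test. The members and lists were chosen with earlier results of these data known. No cluster of its own was found for 172 listed genes. Named are Nfic and Foxf1, the 25 largest rises and falls among called genes with arrays that do not overlap (predicted genes and clusters on another chromosome passed over), up to 5 called members per list and direction, and the study's genes. Genes named without a call, the chromosome stretches and their members, and Ifit1 with its promoter were chosen after values were seen. Promoters are RefSeq windows of 250 bases before to 50 after the start (GRCm38.p6), held for 14496 of the genes tested, 2498 of them with several, and motifs were searched on both strands. Replicate numbers were tested as a block, and the alternatives are given in the closing section.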

Additional observations from a re-analysis of the deposited data

Results flagged for a closer look

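Outside the genes compared, 6 clusters that have no gene symbol, several symbols, or a symbol whose gene lies on another chromosome were higher in NFI-C2 cells by more than 4-fold. The largest difference of the whole array, 9.11, was that of a cluster on chromosome 8 from 125949778 to 125952544 (NCBIM37) to which the platform annotation gives the symbol Kcnma1. Its values were 8.54, 8.57 and 8.64 with NFI-C2 and -0.84, -0.50 and -0.25 in wild type cells, and 3.62, -0.17 and 0.00 on the FoxF1 arrays. Kcnma1, a potassium channel gene, has its own cluster on chromosome 14, which had 0.04 and did not pass (adjusted p = 0.17), so that the symbol is not used for the cluster on chromosome 8. What it measures is not annotated in the sources used here. A second cluster beside it, from 125955801 to 125957414 and with no symbol, had 8.07, with 7.70, 7.70 and 7.87 against -0.46, 0.00 and -0.48, and 1.35, -0.42 and -0.29 on the FoxF1 arrays. Both lie in the stretch of chromosome 8 that was mostly lower, between Tubb3 (0.50, a call lost in 3 of 6 fits with 1 array left out) and Def8 (-0.41).

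The other 4 clusters hold near-identical members of families described in the report, and their signal cannot be assigned to 1 gene. The cluster of Dsg1a, Dsg1b and Dsg1c, desmosomal cadherins of stratified epithelium, had 3.27. The 3 clusters of Sprr2a and Sprr2b genes, small proline-rich proteins of the cornified envelope, had 2.66, 2.47 and 2.46. Lower by more than 4-fold among such clusters was 1 with no symbol, on chromosome 15 from 10261810 to 10264415, with -0.08, 0.00 and 0.00 against 2.02, 2.10 and 1.99 (-2.07).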

How the results depend on the processing

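None of the counts over all genes changed direction, nor did any call among the 581 named genes. The difference of Nfic, which was not called, ranged from -0.11 to 0.008 with 1 array left out. With quantile normalization, which gives all arrays the same spread, 961 genes were higher and 1139 lower by 1.5-fold, against 424 and 517. At 2-fold there were 135 and 176, and 132 and 174 passed a test against 1.5-fold. Leaving out 1 array gave 1281 to 1544 genes higher and 1664 to 2006 lower, and 385 to 450 and 474 to 532 by 1.5-fold. The fit of only the 6 arrays gave 1480 higher and 2026 lower, sharing 1322 and 1854 genes with the fit of 9, and unmoderated variances gave 1310 and 1845. An alternative added after seeing the data, leaving out genes with 3 equal arrays in either group, gave 1682 and 2391. Deviations of arrays with the same replicate number correlated at 0.0839, 0.00507 and 0.0215 between NFI-C2 and wild type. Pairs that include a FoxF1 array gave 0.00051 to 0.179 for the same number. Between groups, arrays with different numbers gave -0.192 to 0.101. These small values do not decide whether the numbers pair the samples. With the replicate block 1596 genes were higher and 2308 lower, 424 and 515 by 1.5-fold. Of the named genes, 49 lost their call in the fit of 6 arrays, 19 with the block, 43 with unmoderated variances and 51 to 78 without 1 array. A batch could not be fitted because the sources used here give none.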

Other observations

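Clusters without a gene of their own showed further differences. Of 4929 clusters with no symbol 224 were higher and 139 lower, of 1731 second clusters of a gene 116 and 180, and of 1495 with several symbols 103 and 105. Over all 26652 clusters with unequal values 17.0% were called. Gm5886, a predicted gene on chromosome 6 from 133714020 to 133717413 that the ranking of named genes passed over, had 4.78, 4.50 and 4.82 with NFI-C2 and 0.00, -0.19 and 0.00 in wild type cells. Its difference of 4.76 (standard error 0.095, adjusted p = 2.8e-07) exceeded that of every gene named as higher, and it lies in the stretch of chromosome 6. Of the 14645 genes not called, 9 differed by 1.5-fold or more.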
